A study of Mus musculus with 10 samples.

Results

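The genes described here, taken by name, encode enzymes and partners that place or remove repressive marks on DNA and histone H3. The 10 genes were Dnmt1, Uhrf1, Dnmt3a, Dnmt3b, Tet2, Tet3, Ezh1, Ezh2, Eed and Suz12, and all 10 were found among the 35006 genes counted. Poly-A RNA was sequenced from EpCAM+ cells of small intestinal crypts of C57BL6/J mice carrying EF1a-OSCAR, with 10000 cells sorted for each of 5 populations and 2 replicates of each, giving 10 libraries. OSCAR is a fluorescent reporter that dims when CDK9, the kinase of Serine 2 of the RNA polymerase II tail, is active, so that high OSCAR stands for low kinase activity, and EF1a low or high stands for how much of both of its fluorescent proteins, green and red, was made from the EF1a promoter at a given ratio of the 2. The labels give P1 as OSCARlow EF1alow, P2 as OSCARhigh EF1alow, P3 as OSCARlow EF1ahigh, P4 as OSCARmed EF1alow and P5 as OSCARmed EF1ahigh. All 5 populations, and so every control, carried the transgene in the Rosa26 locus, where a stop cassette had been removed by germline Vasa-Cre, so that the reporter could be made in all tissues. The study's text calls the replicates biological, and the age of the mice is not given in the sources used here. Uty, a gene of the Y chromosome, had 0 counts in all 5 libraries of replicate 1 and lay at 20.9 to 30.8 CPM (the count of a gene scaled to the depth of its library) in all 5 of replicate 2, so the replicates came from different animals and libraries of the same number shared their sex.

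Methyl groups on cytosines in CpG pairs are copied to the new strand after each round of DNA replication by Dnmt1, which is brought to half-methylated sites by Uhrf1. Dnmt3a and Dnmt3b add methyl groups at sites that had none, and the Tet enzymes oxidise them as a first step of removal. Polycomb repressive complex 2 (PRC2) methylates lysine 27 of histone H3 through Ezh1 or Ezh2, which are active only together with Eed and Suz12. Ezh2 is known from dividing cells and Ezh1 from cells that have left the cycle. In the crypt, stem and transit-amplifying cells divide, and Paneth, goblet, tuft and enteroendocrine cells are secretory types that mostly do not.

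The labels of P2 and P3 conflict with the study's own marker genes, since the libraries labelled P2 hold the secretory genes that the study places in P3. The 7 Paneth genes averaged 13.9 to 14.4 log2 CPM in the libraries labelled P2 and 4.91 to 11.2 in the other 8, and the 8 goblet genes 12.03 to 12.83 against 7.06 to 9.45. The 8 tuft genes averaged 5.70 to 6.57 against 1.21 to 3.90, and the 10 enteroendocrine genes 6.54 to 8.16 against 0.772 to 4.58. Mki67, the gene of the proliferation marker Ki67, runs as the labels say, since the study gives OSCAR high cells as low for Ki67. Mki67 was lowest in the libraries labelled P2, at 32.3 and 27.7 CPM, while the P3 libraries held 285 and 554 CPM. Secretory types mostly do not divide either, so Mki67 does not decide the conflict over the labels. No library was renamed, so the OSCAR and EF1a gates named below for P2 and P3 are those of the labels, in every comparison and in the interaction. Libraries held 3857612 to 6485823 counts on genes. Counts on mitochondrial genes made up 59.2% and 36.1% of replicates 1 and 2 labelled P3, against 1.04% to 5.19% of the other 8 libraries. The libraries labelled P3 therefore kept 1574312 and 3003394 counts on other genes, against 4732040 to 6291247. The 10 most abundant genes took 47.8% and 41.3% of the counts in replicates 1 and 2 labelled P2. That share was 59.4% and 36.5% in those labelled P3 and 6.33% to 10.9% in P1, P4 and P5. The libraries labelled P2 thus also had a smaller part of their counts left for all other genes. For Dnmt1 and Uhrf1, the comparisons of P3 with 1 other population and the interaction are given with and without 1 of its libraries.

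The pattern of the 10 genes was uneven. Dnmt1 and Uhrf1, which serve the copying of methylation, were lower in P1 and in the libraries labelled P2 than in P4. Uhrf1 was lower again in the libraries labelled P2 than in P1. Ezh2 was lowest in the libraries labelled P2, Ezh1 had its highest levels there and in P1, and Dnmt3a and Suz12 varied little. Over all 5 populations, 2 of the 10 genes, Dnmt1 and Uhrf1, passed an adjusted p of 0.01 in the edgeR quasi-likelihood test for any difference, where 36.3% of the 13706 genes tested passed. All 10 genes passed the filter on low counts.

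**Figure D1:**
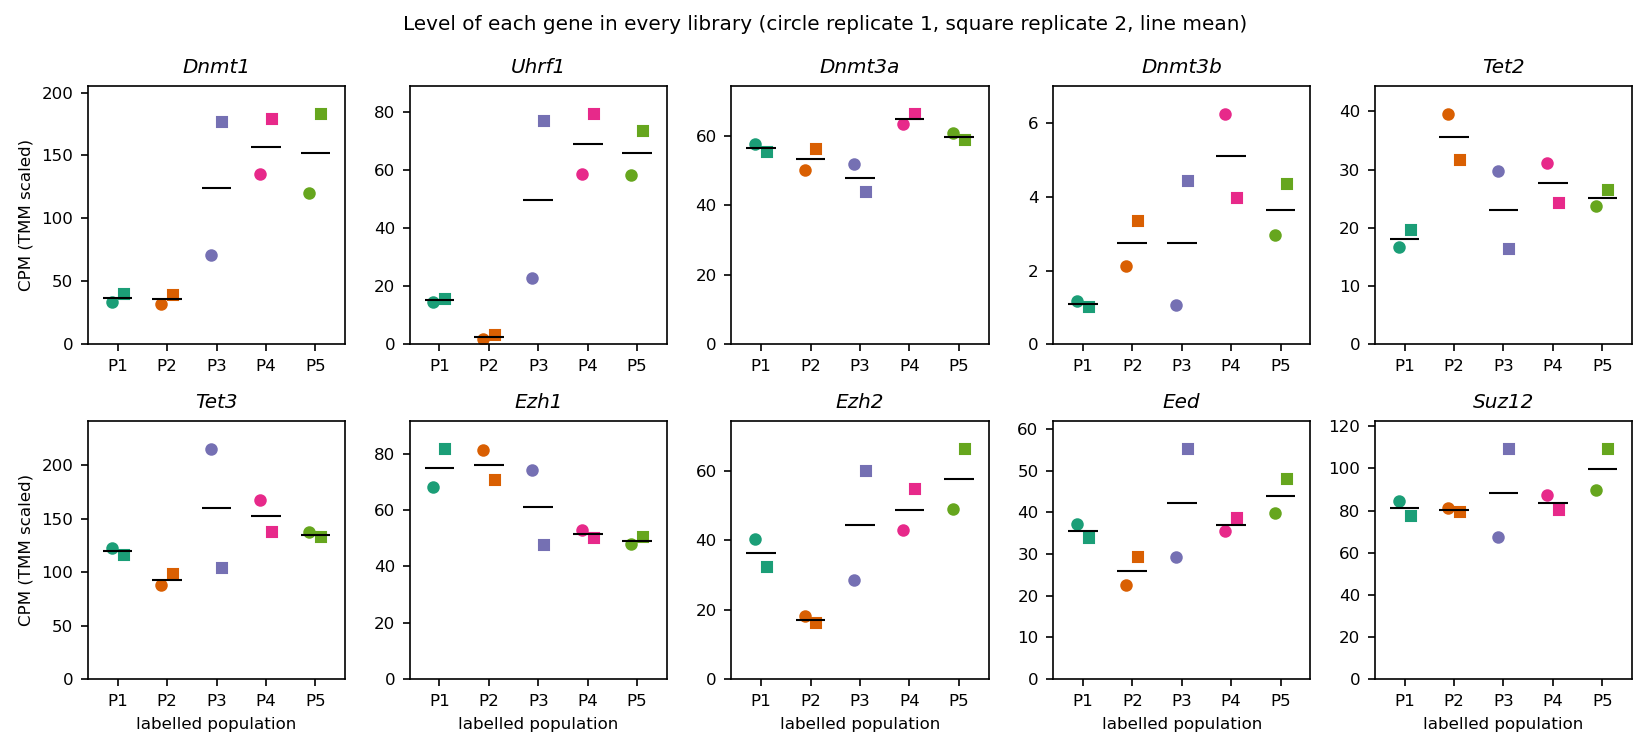
Level of each of the 10 genes in CPM, scaled with TMM factors (linear axes from 0), in the 10 libraries by labelled population, with circles for replicate 1, squares for replicate 2 and a line at the mean of the 2. Dnmt1 lies at 32.0 to 40.1 CPM in P1 and P2 and at 121 to 183 in P4 and P5, and the replicates labelled P3 lie far apart for most of the genes.

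The promoters of the 10 genes were searched for motifs of genes of the cell cycle, and 5 windows are printed to show the matches and a gene with none. RefSeq windows of 300 bases (GRCm38.p6), from 250 before to 50 after a transcription start, were found for all 10 genes, 15 windows in all, and each matched the NCBIM37 genome once. They were searched on both strands for the letters TTTCCCGC, TTTCGCGC, TTTGCCGC or TTTGGCGC, forms of the E2F site of genes of the cell cycle, and for CCAAT, the box bound by NF-Y. An E2F form was present in 2.26% of 32851 windows of all genes and CCAAT in 37.4%. These shares are per window, while the counts that follow are of genes with a match in any of their windows. The shares and the counts are therefore not on the same unit. Windows of 4 of the 10 genes, Dnmt1, Uhrf1, Ezh2 and Suz12, held an E2F form, and windows of 6 held CCAAT (these 4, Tet3 and Eed). Suz12, which passed no test below, held both, as Ezh2 did. The windows of the 4 genes and that of Ezh1, which held neither, are printed from 250 bases before the start to 30 after it, on the strand of the gene, with matches on either strand in capitals, and a match describes the letters only.
Dnmt1, chr9:20757038-20757317, minus strand: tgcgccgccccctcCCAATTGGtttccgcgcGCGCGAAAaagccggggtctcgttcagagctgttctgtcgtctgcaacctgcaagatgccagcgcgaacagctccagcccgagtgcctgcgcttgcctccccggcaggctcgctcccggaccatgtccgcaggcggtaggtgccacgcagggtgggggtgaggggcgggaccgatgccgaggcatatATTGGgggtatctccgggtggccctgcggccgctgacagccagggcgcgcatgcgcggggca
Uhrf1, chr17:56443486-56443765, plus strand: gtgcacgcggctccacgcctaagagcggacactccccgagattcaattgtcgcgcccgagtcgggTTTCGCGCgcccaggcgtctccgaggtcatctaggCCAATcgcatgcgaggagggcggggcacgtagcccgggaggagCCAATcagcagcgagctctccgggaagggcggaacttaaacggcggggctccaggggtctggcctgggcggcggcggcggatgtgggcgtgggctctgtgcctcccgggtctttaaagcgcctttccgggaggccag
Ezh2, chr6:47545000-47545279, minus strand: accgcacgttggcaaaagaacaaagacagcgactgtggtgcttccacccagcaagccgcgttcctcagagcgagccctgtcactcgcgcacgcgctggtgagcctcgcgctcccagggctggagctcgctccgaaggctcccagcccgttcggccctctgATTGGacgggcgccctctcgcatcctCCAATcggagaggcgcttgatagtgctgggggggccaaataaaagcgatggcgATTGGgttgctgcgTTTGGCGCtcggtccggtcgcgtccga
Suz12, chr11:79806358-79806637, plus strand: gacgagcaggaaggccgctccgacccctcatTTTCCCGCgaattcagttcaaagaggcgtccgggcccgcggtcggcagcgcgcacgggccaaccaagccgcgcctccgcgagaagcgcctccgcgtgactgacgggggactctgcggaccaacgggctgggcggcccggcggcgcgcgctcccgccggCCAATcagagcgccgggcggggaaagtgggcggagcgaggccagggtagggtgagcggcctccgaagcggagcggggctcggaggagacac
Ezh1, chr11:101087748-101088027, minus strand: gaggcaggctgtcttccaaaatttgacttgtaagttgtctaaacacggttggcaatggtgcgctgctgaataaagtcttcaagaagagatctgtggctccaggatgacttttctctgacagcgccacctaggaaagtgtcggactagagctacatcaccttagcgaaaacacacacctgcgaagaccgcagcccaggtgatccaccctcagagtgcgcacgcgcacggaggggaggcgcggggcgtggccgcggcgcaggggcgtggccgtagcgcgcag
Counted from the RefSeq start of its window, the E2F form began 219 bases before it in Dnmt1, where it reads on the opposite strand. It began 185 before in Uhrf1, 219 before in Suz12, and at base 4 of the transcript in Ezh2. The printed stretches of Dnmt1, Uhrf1 and Ezh2 lie wholly inside the NCBIM37 bounds of each gene given below. Their matches are therefore not upstream of the first annotated base of the gene. A second form in the Dnmt1 window began at base 34, past the printed stretch. For Dnmt1 and Uhrf1 these are windows of 1 of several annotated starts, and the other windows of both genes held no E2F form.

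Dnmt1, the maintenance methyltransferase (NCBIM37 chr9:20711650-20757317, minus strand), was low in P1 and in the libraries labelled P2 and high in P4 and P5. Replicate 1 of P3 lay between them. The values of Dnmt1, like those of the genes after it, are given as replicate 1 and replicate 2 of each population. P1 held 33.5 and 40.1 CPM, the libraries labelled P2 32.0 and 39.5, the P3 libraries 70.6 and 177, P4 135 and 179, and P5 121 and 183. The 4 libraries of P1 and P2 lay below all of the other 6, and the levels of P1 and P2 overlapped, as did those of P3, P4 and P5. In P2 versus P4, which by their labels differ in OSCAR at low EF1a, Dnmt1 was 4.38-fold lower (log2 fold change -2.13, SE 0.41, edgeR quasi-likelihood test with Benjamini-Hochberg adjusted p = 0.00527). In P1 versus P4, which differ in OSCAR the other way, it was 4.26-fold lower (log2 -2.09, SE 0.41, adjusted p = 0.00407 in the same edgeR test). No difference between P1 and P2 was detected for Dnmt1 (log2 -0.04, 95% interval -0.95 to 0.87). Either call was lost without any 1 of its 4 libraries, and in each of those fits fewer of all genes passed as well. Over all alternatives the log2 values of the 2 comparisons with P4 reached from -2.34 to -1.88.

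Uhrf1 (chr17:56442744-56462909, plus strand), which reads half-methylated CpG sites and the histone tail beside them, varied most of the 10 genes, with a 26.6-fold span between its highest and lowest population means. P4 held 58.6 and 79.3 CPM, P5 58.1 and 73.2, P1 14.6 and 15.7, the libraries labelled P2 1.83 and 3.35, and those of P3 22.8 and 76.6. The counts behind the libraries labelled P2 were 6 and 15, above the limit of 3 counts that was taken as detection. P2, P1 and the other 3 populations formed 3 steps that did not overlap, while P3, P4 and P5 overlapped each other. In P2 versus P4 Uhrf1 was 25.7-fold lower (log2 -4.68, SE 0.58, adjusted p = 0.00089, edgeR), and in P1 versus P4 4.55-fold lower (log2 -2.19, SE 0.47, adjusted p = 0.0062, edgeR). In P2 versus P1 it was 5.65-fold lower (log2 -2.50, SE 0.59, adjusted p = 0.00758, edgeR). The call in P2 versus P1 was lost without mitochondrial genes and without any 1 library of P1, P2, P4 or P5. The log2 values there were -3.03 to -2.16 over all alternatives. The call in P1 versus P4 was lost without any 1 library of P1, P4 or P5. In each of these fits with 1 library left out, fewer of all genes passed as well. The call in P2 versus P4 was kept in every alternative run.

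These 2 genes were the only members past the threshold in P2 versus P4, both lower, where 14.3% of all genes tested passed and 6.31% passed lower. They were also the only 2 in P1 versus P4, again both lower, where 23.4% passed, 14.0% higher and 9.44% lower. Higher genes were 59.7% of all calls in P1 versus P4 and 46.9% when mitochondrial genes were left out before scaling. In P2 versus P1, 1 of the 10 genes passed, Uhrf1, lower, where 29.1% of all genes passed, 13.9% higher and 15.2% lower. The median log2 fold change of the 10 genes was -0.61 in P2 versus P4, -0.39 in P1 versus P4 and -0.06 in P2 versus P1, beside 0.05, -0.06 and 0.01 over all genes tested. P2 versus P4 and P1 versus P4 share the P4 libraries, so their values are not independent of each other. The libraries compared did not overlap for 71.2% of all genes in P2 versus P4, 78% in P1 versus P4 and 77% in P2 versus P1. A lack of overlap between 2 populations therefore does not set a gene apart. The share of all genes for which 1 or 2 populations lay apart from all other libraries was not taken. Where this is said of a gene, above or below, it describes the values only.

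**Figure D2:**
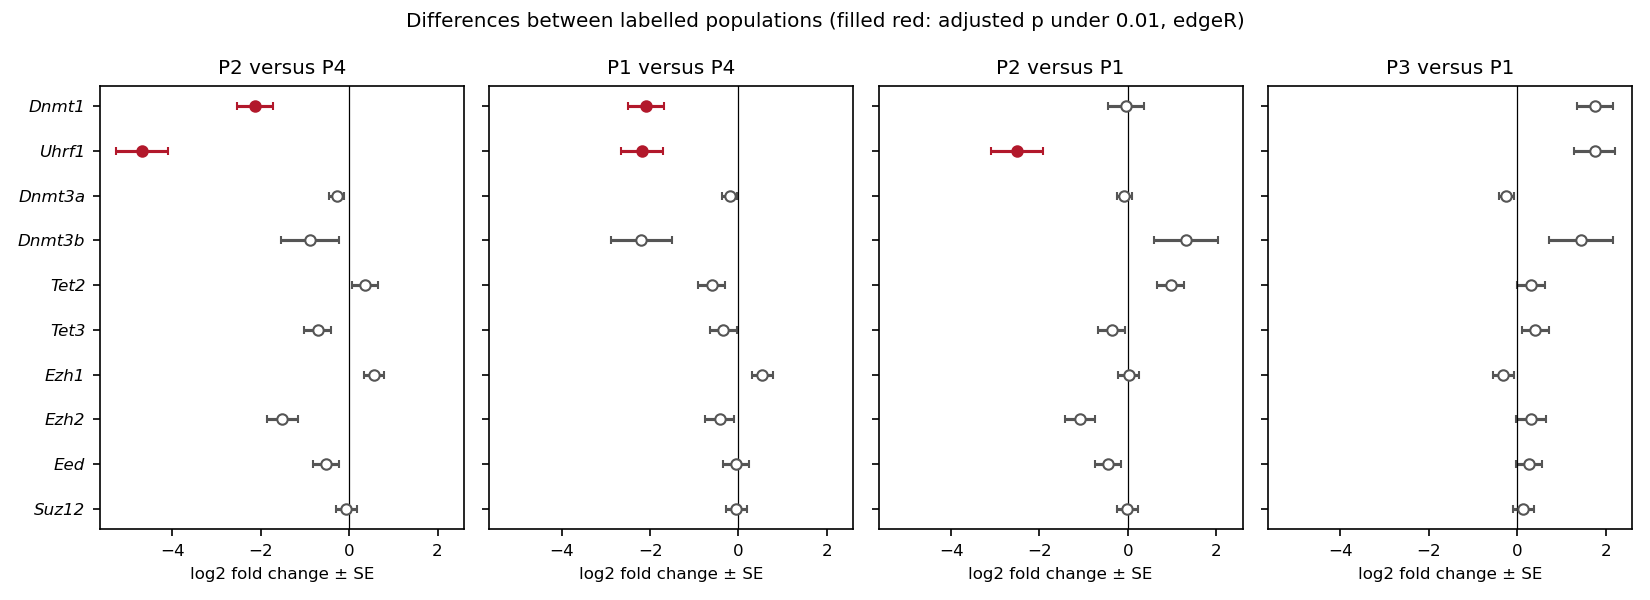
Log2 fold change of each of the 10 genes in 4 comparisons of labelled populations, with bars of 1 SE from the edgeR model of all 10 libraries and filled red points at an adjusted p under 0.01. Dnmt1 and Uhrf1 lie at -2.13 and -4.68 in P2 versus P4 and at 1.76 and 1.75, not past the threshold, in P3 versus P1.

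Dnmt1 and Uhrf1 were lowest in P1 and the libraries labelled P2, where genes of DNA replication were also lowest. Between those 2 populations they did not run alike. In P2 versus P1 the median log2 fold change of 20 S phase genes was -0.98, beside -0.04 for Dnmt1 and -2.50 for Uhrf1. The mean of 20 S phase genes lay at 5.32 to 5.65 log2 CPM in P4 and 5.03 to 5.56 in P5, was 4.38 and 5.67 in replicates 1 and 2 labelled P3, and was 3.74 to 3.75 in P1 and 2.68 to 2.92 in the libraries labelled P2. The mean of 20 G2M phase genes reached 6.30 to 6.95 in P5 and 5.77 to 6.39 in P3, lay at 5.06 to 5.15 in P4 and 4.38 to 4.46 in P1, and was lowest, 2.09 to 2.14, in P2. Replicate 1 of the libraries labelled P3 was the lower of that pair for S phase genes, for Dnmt1 and for Uhrf1. Of the 20 S phase genes, 14 were lower in P2 versus P4, 10 in P1 versus P4 and 1 in P2 versus P1 by the same test. Of the 20 G2M phase genes, 19 were lower and 1 higher in P2 versus P4, 1 was lower in P1 versus P4, and 18 were lower and 1 higher in P2 versus P1. The part of these differences in the values of Dnmt1 and Uhrf1 was not tested, and in bulk libraries fewer cells of a type and less RNA per cell cannot be told apart.

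**Figure D3:**
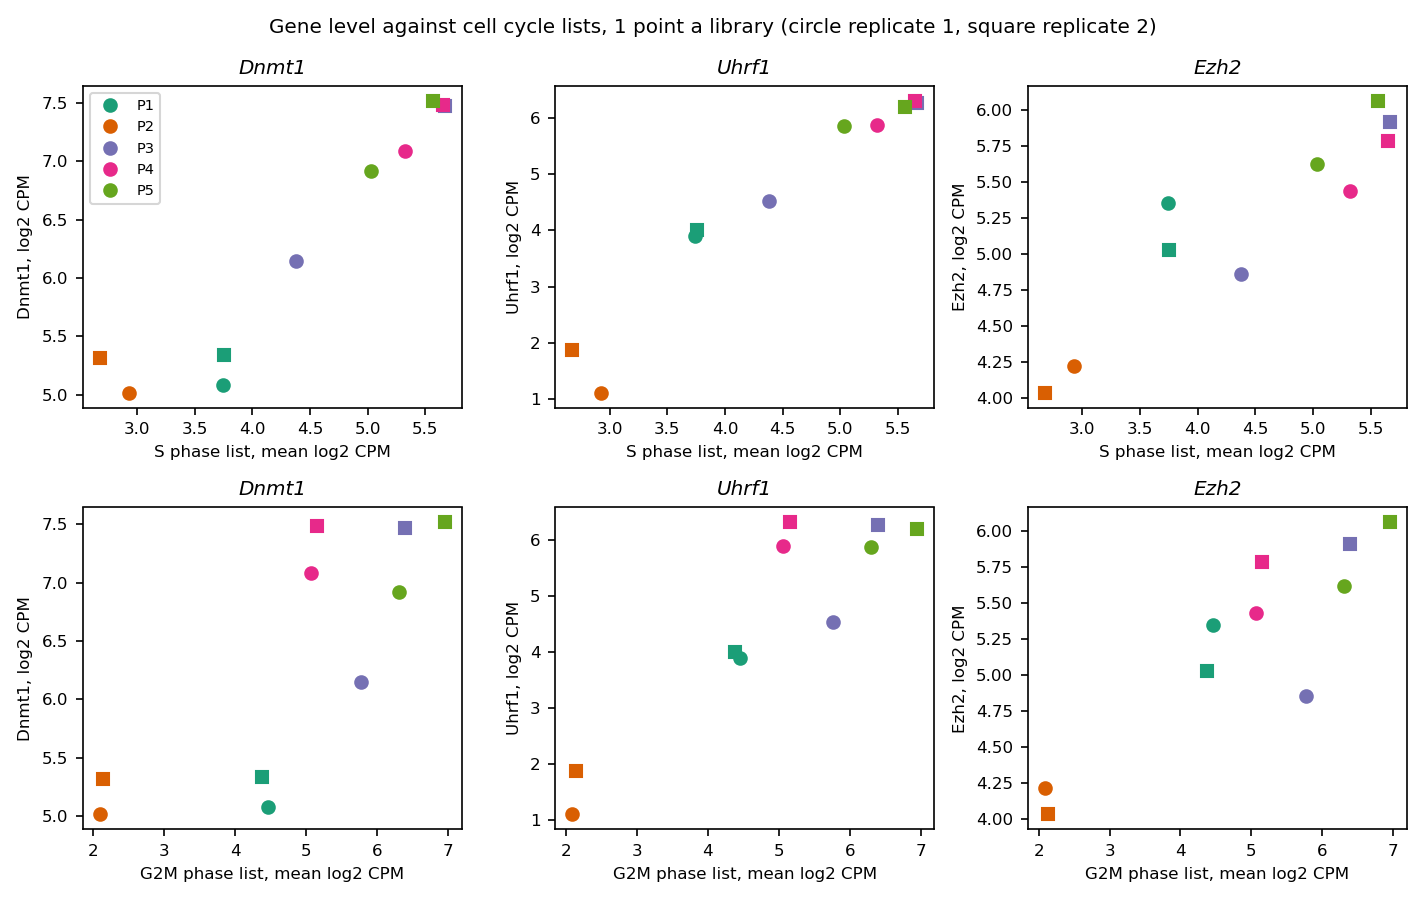
Log2 CPM of Dnmt1, Uhrf1 and Ezh2 in each library against the mean log2 CPM of 20 S phase genes (top) and 20 G2M phase genes (bottom), coloured by labelled population, with circles for replicate 1 and squares for replicate 2. Libraries labelled P2, at 2.68 to 2.92 for S phase genes and 2.09 to 2.14 for G2M phase genes, hold the lowest Uhrf1 and Ezh2, and P1 lies near P2 for Dnmt1 though its G2M phase genes are at 4.38 to 4.46.

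Other cell types also differed between the populations beside these genes. Stem cell genes (10 genes) averaged 6.82 to 7.19 log2 CPM in P4, 6.70 to 7.11 in P5, 5.97 to 6.32 in the libraries labelled P2, 4.66 to 5.80 in those labelled P3 and 4.52 to 4.77 in P1. Enterocyte genes (14 genes) averaged 10.3 to 10.9 in P1, 8.95 to 10.6 in the libraries labelled P3 and 8.93 to 10.2 in P5. They averaged 7.97 to 9.34 in P4 and 6.62 to 7.35 in the libraries labelled P2, so P1 overlapped those labelled P3. The 13 lymphocyte and myeloid genes summed to 722 to 959 CPM in P1 and 23.5 to 241 CPM in the other 8 libraries, and 11 and 12 of them were counted in the P1 replicates against 6 to 8 in the others. Ptprc, the pan-leukocyte gene, was at 25.8 to 113 CPM in P1, 14.3 to 22.3 in the libraries labelled P2, 1.78 to 30.3 in those labelled P3 and at most 1.26 in P4 and P5. The 10 stroma and endothelium genes summed to 2.18 to 53.5 CPM in all libraries. The part of these cells in the levels of P1 and P2 was not tested.

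Dnmt1 and Uhrf1 also differed from each other within libraries. Per kilobase of exon, the ratio of the Uhrf1 level to the Dnmt1 level was 0.0706 and 0.105 in replicates 1 and 2 of the libraries labelled P2 and 0.400 to 0.596 in the other 8. In P1, where both genes were low, the ratio was 0.537 and 0.484, within the range of P3, P4 and P5. The ratio in the libraries labelled P2 was therefore below all others, and it rests on 6 and 15 counts of Uhrf1.

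Dnmt3a (chr12:3806007-3914443, plus strand), an enzyme of new methylation, was at 43.7 to 66.4 CPM in all 10 libraries. The libraries labelled P2 held 50.3 and 56.2 CPM and those labelled P3 52.0 and 43.7, with P1 at 57.6 and 55.2, P4 at 63.4 and 66.4, and P5 at 60.7 and 58.7. Both P4 libraries lay above the other 8, and the means spanned 1.36-fold. Its difference in P2 versus P4 was log2 -0.28 with a 95% interval of -0.68 to 0.11, so that a fall of more than 0.68 lay outside the interval. The Dnmt3a level per kilobase was 0.435 to 0.543 of the Dnmt1 level in the libraries of P1 and P2, 0.233 and 0.0782 of it in replicates 1 and 2 of P3, and 0.101 to 0.159 in P4 and P5. The 4 libraries of P1 and P2 lay above the other 6 in this ratio. In the annotation, 133 exon bases of Dnmt3a lie opposite another gene, Gm10485, and reads there cannot be told apart without strand.

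Dnmt3b (chr2:153475186-153513466, plus strand), the second enzyme of new methylation, was the lowest of the 10 genes per kilobase in every population mean (0.214 to 1.002 CPM per kilobase, beside 0.607 to 29.8 for the other 9). P1 held 1.19 and 1.004 CPM, the libraries labelled P2 2.13 and 3.35, the P3 libraries 1.06 and 4.44, P4 6.27 and 3.97, and P5 2.98 and 4.34. P1 lay below P4 without overlap, as 78% of all genes did not overlap there, at 7 and 6 counts against 51 and 40. The log2 fold change of -2.20 (SE 0.69, adjusted p = 0.0302, edgeR) did not pass. One library labelled P3 held 2 counts, under the detection limit, so differences in Dnmt3b were poorly resolved at this depth.

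Tet2 (chr3:133126643-133207354, minus strand), an oxidising enzyme that starts the removal of methyl groups, was highest in the libraries labelled P2. P4 held 31.2 and 24.3 CPM, P5 23.8 and 26.5, P1 16.8 and 19.6, the libraries labelled P2 39.6 and 31.7, and those of P3 29.7 and 16.4. Both libraries labelled P2 lay above the other 8, the lower of them at 31.7 CPM beside 31.2 in replicate 1 of P4. In P2 versus P1 the log2 fold change was 0.97 (SE 0.31, adjusted p = 0.0280, edgeR), which did not pass at 0.01 but did at 0.05 and in the fit without the libraries labelled P3. In P2 versus P4 it was 0.36, with a 95% interval of -0.32 to 1.04.

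Tet3 (chr6:83312367-83391672, minus strand), of the same enzyme family, had its lowest levels in the libraries where Tet2 was highest. The libraries labelled P2 held 87.5 and 97.9 CPM and those labelled P3 216 and 104, with P1 at 123 and 116, P4 at 167 and 138, and P5 at 137 and 132. Both libraries labelled P2 lay below the other 8, with a log2 fold change of -0.72 in P2 versus P4 (SE 0.31, adjusted p = 0.113, edgeR) that did not pass. Per kilobase, the Tet3 level was 1.83 and 2.57 times the Tet2 level in the libraries labelled P2 and 4.15 to 6.07 times in the other 8, which did not overlap with them.

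**Figure D4:**
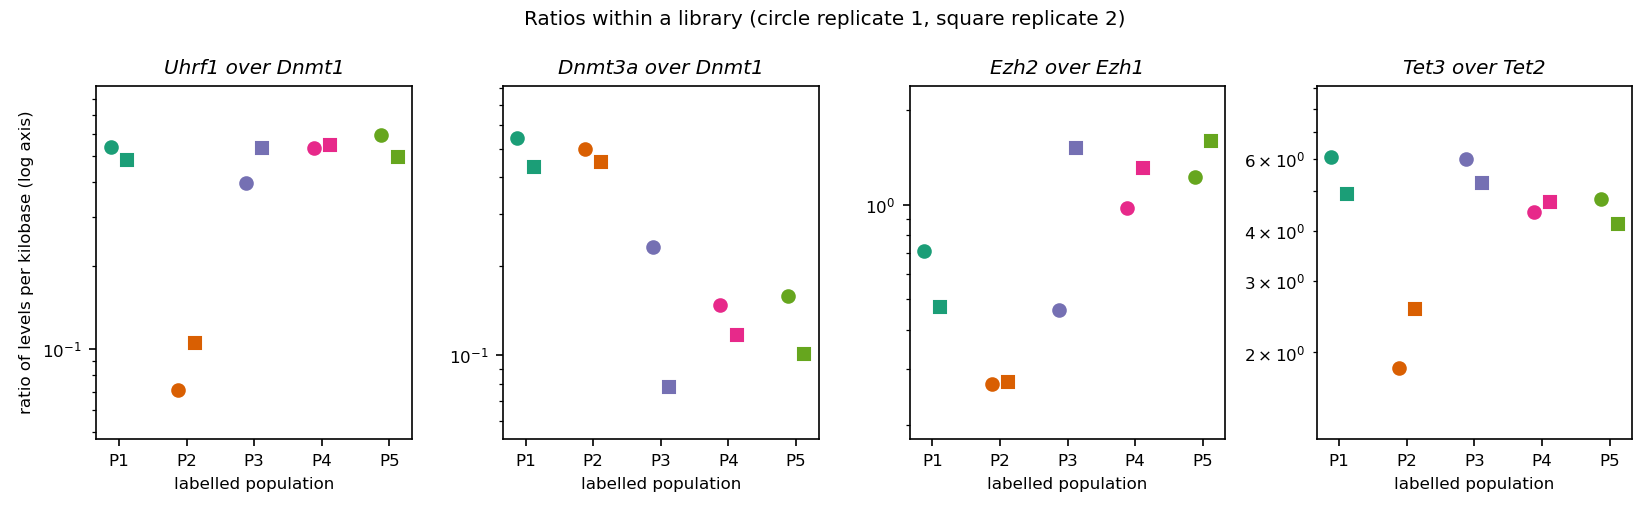
Ratio of the levels per kilobase of exon of 4 gene pairs within each library (log axes), by labelled population, with circles for replicate 1 and squares for replicate 2. The libraries labelled P2 have the lowest ratios of Uhrf1 to Dnmt1 (0.0706 and 0.105), Ezh2 to Ezh1 (0.270 and 0.274) and Tet3 to Tet2 (1.83 and 2.57), while the ratio of Dnmt3a to Dnmt1 is high in P1 and P2 alike.

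Ezh2 (chr6:47480273-47545340, minus strand), the PRC2 catalytic subunit of dividing cells, was lowest in the libraries labelled P2. P1 held 40.5 and 32.3 CPM, the libraries labelled P2 18.3 and 16.1, the P3 libraries 28.7 and 59.95, P4 42.9 and 54.8, and P5 48.9 and 66.5. The libraries labelled P2 lay below all of the other 8, and each other population overlapped its neighbour in the order P5, P4, P3, P1. Against the average of the other 4 populations, the comparison made for the OSCAR high cells, Ezh2 was 2.71-fold lower in P2 (log2 -1.44, SE 0.30, adjusted p = 0.00431, edgeR), and the call was lost without either library labelled P2. In P2 versus P4 its log2 fold change was -1.51 (SE 0.35, adjusted p = 0.0112, edgeR), just outside the threshold, and it passed in 8 of 19 alternatives, DESeq2 and the fit without the libraries labelled P3 among them. Blocked by replicate number it was -1.498 (SE 0.32, adjusted p = 0.0076, edgeR) and passed. In P1 versus P4 it was -0.42, with a 95% interval of -1.16 to 0.31. Ezh2 shares 174 exon bases with Gm17629 on the other strand.

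Against that same average, 3 of the 10 genes passed in P2, namely Ezh2, Dnmt1 and Uhrf1, all lower, where 10.7% of all genes passed lower and 3706 of the 13706 passed in either direction. Dnmt1 was at log2 -1.51 (SE 0.35, adjusted p = 0.00746, edgeR) and Uhrf1 at -4.01 (SE 0.53, adjusted p = 0.0004, edgeR). The Dnmt1 levels of P2 overlapped those of P1 inside that average. Its call was lost without either library of P1, P2 or P4 or without replicate 2 of P5, with log2 values of -1.69 to -1.33 over all alternatives and adjusted p up to 0.0743.

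Ezh1 (chr11:101052429-101087777, minus strand), the alternative catalytic subunit, ran the other way. P4 held 52.8 and 50.2 CPM, P5 48.0 and 50.3, P1 68.3 and 81.8, the libraries labelled P2 81.4 and 70.5, and those of P3 74.3 and 47.5. The 4 libraries of P1 and P2 lay above the 4 of P4 and P5, with the P3 pair across both. The log2 fold change was 0.56 in P2 versus P4 (SE 0.23, adjusted p = 0.101, edgeR) and 0.54 in P1 versus P4 (SE 0.23, adjusted p = 0.0835, edgeR), and neither passed. Per kilobase, the Ezh2 level was 0.270 and 0.274 of the Ezh1 level in the libraries labelled P2, where P1 had 0.712 and 0.474, P3 0.463 and 1.51, P4 0.974 and 1.31, and P5 1.22 and 1.59. The libraries labelled P2 were the lowest in this ratio and P5 held the highest, and the P3 replicates fell on either side of 1.

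Eed (chr7:97103166-97129493, minus strand), which binds the methylated histone tail and stimulates the enzyme, reached at most 47.9 CPM outside replicate 2 of P3. P1 held 37.3 and 33.8 CPM, the libraries labelled P2 22.6 and 29.2, the P3 libraries 29.2 and 55.3, P4 35.5 and 38.6, and P5 39.9 and 47.9. In P2 versus P4 its log2 fold change was -0.51, with a 95% interval of -1.18 to 0.15. Suz12 (chr11:79806608-79847625, plus strand), the scaffold of the complex, was the most even gene, with means that spanned 1.24-fold. The libraries labelled P2 held 81.1 and 79.2 CPM and those labelled P3 67.4 and 109, with P1 at 84.7 and 77.3, P4 at 87.2 and 80.3, and P5 at 89.7 and 109. Its log2 fold change in P2 versus P4 was -0.06, with a 95% interval of -0.60 to 0.48. P1, P2 and P4 overlapped for Suz12, and the range of P3 covered them all. Within libraries, the Ezh2 level per kilobase was 0.180 and 0.162 of the Suz12 level in the libraries labelled P2 and 0.333 to 0.544 in the other 8, and the Eed level 0.620 and 0.823 of it against 0.908 to 1.13. The core subunits Eed and Suz12 were thus near each other per kilobase, while Ezh2 stood below both in every library. Suz12 shares 178 exon bases with Gm16706 on the other strand.

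The EF1a gates were compared at a fixed OSCAR gate, and no call was made for the 10 genes. In P5 versus P4, at medium OSCAR, 0 of the 10 genes passed in the edgeR test, where 0% of all genes passed. At an unadjusted p under 0.05, 0 of the 10 genes and 350 of all genes stood in that comparison, and DESeq2 called 0 of the 10 and 27 of all genes. The intervals were widest for Dnmt3b (log2 -1.86 to 0.91), and for Dnmt1 and Uhrf1 they reached from -0.92 to 0.82 and from -1.06 to 0.92, so that 2-fold changes lay near their edges. G2M phase genes were at 6.30 to 6.95 log2 CPM in P5 and 5.06 to 5.15 in P4.

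In P3 versus P1, at low OSCAR, Dnmt1 was 3.39-fold higher in the libraries labelled P3 (log2 1.76, SE 0.41, adjusted p = 0.0108, edgeR) and Uhrf1 3.37-fold higher (log2 1.75, SE 0.47, adjusted p = 0.0204, edgeR). Neither passed the threshold, so 0 of the 10 genes were called, where 15.6% of all genes passed. At an unadjusted p under 0.05 there were 2 of the 10, Dnmt1 and Uhrf1, beside 6151 of the 13706 genes tested. DESeq2 called 3497 of all genes, among them both Dnmt1 and Uhrf1. Both also passed without replicate 1 of P3 (log2 2.28 for Dnmt1 and 2.35 for Uhrf1), and without replicate 2 of P3 the values were 0.96 and 0.62. Blocked by replicate number both passed, Dnmt1 at log2 1.67 (SE 0.27, adjusted p = 0.00252, edgeR) and Uhrf1 at 1.61 (SE 0.36, adjusted p = 0.00839, edgeR). Replicate 1 of P3 lay nearer to the P1 mean than to replicate 2 of P3 on the log2 CPM scale for all 10 genes. In P3 versus P5, which differ in OSCAR at high EF1a, 0 of the 10 genes passed in the edgeR test, 0 did at an unadjusted p under 0.05 and DESeq2 called 0. Of all genes 0% passed, 1587 stood at an unadjusted p under 0.05, and DESeq2 called 39. Without replicate 1 of P3 the log2 values were 0.20 for Dnmt1 and 0.20 for Uhrf1, and without replicate 2 they were -1.11 and -1.53, which did not pass.

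The interaction, that is whether the EF1a difference at medium OSCAR differed from that at low OSCAR, was -1.81 for Dnmt1 (SE 0.56, adjusted p = 0.0535, edgeR) and -1.82 for Uhrf1 (SE 0.64, adjusted p = 0.0795, edgeR). None of the 10 genes passed in that edgeR test, where 0.810% of all genes did. At an unadjusted p under 0.05 there were 2 of the 10, beside 4655 of the 13706 genes tested. DESeq2 called 0 of the 10 and 2002 of all genes. Without replicate 1 of P3 the interaction was -2.33 for Dnmt1 and -2.43 for Uhrf1, and without replicate 2 it was -1.02 and -0.69, none past the threshold. A difference between the 2 EF1a comparisons was therefore not shown for these genes.

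P2 versus P3 compares the 2 populations whose labels are in doubt, so only the labels decide its sign. Dnmt1 was 3.49-fold lower in the libraries labelled P2 (log2 -1.80, SE 0.41, adjusted p = 0.00835, edgeR) and Uhrf1 19.03-fold lower (log2 -4.25, SE 0.58, adjusted p = 0.00076, edgeR). These 2 of the 10 genes passed, where 21.0% of all genes passed. Ezh2 did not pass (log2 -1.40, SE 0.35, adjusted p = 0.0130, edgeR). The call of Dnmt1 was lost in 12 of 18 alternatives, among them each library of P1, P2, P4 or P5 left out and replicate 2 of P3 left out, with adjusted p up to 0.0593 over all of them. Without replicate 2 of P3 its log2 value was -1.002 and that of Uhrf1, which still passed, -3.11. Without replicate 1 of P3 they were -2.31 and -4.84. For Ezh2 the log2 value was -1.81 without replicate 1 of P3, past the threshold, and -0.77 without replicate 2, which did not pass.

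The partners of these genes were read from 4 lists of 57 genes, of which 54 could be tested, and these lists were chosen with earlier results of these data known. They cover other genes of DNA methylation (19), accessory subunits of PRC2 (8), PRC1 (23) and enzymes that remove the Polycomb marks (7). In P2 versus P4, 6 of the 54 (11.1%) passed, 5 higher and 1 lower, beside 14.3% of all genes. In P1 versus P4, 6 passed (11.1%), 2 higher and 4 lower, beside 23.4%, and in P2 versus P1, 8 passed (14.8%), all higher, beside 29.1%. The shares were below the background in each of the 3 comparisons.

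**Figure D5:**
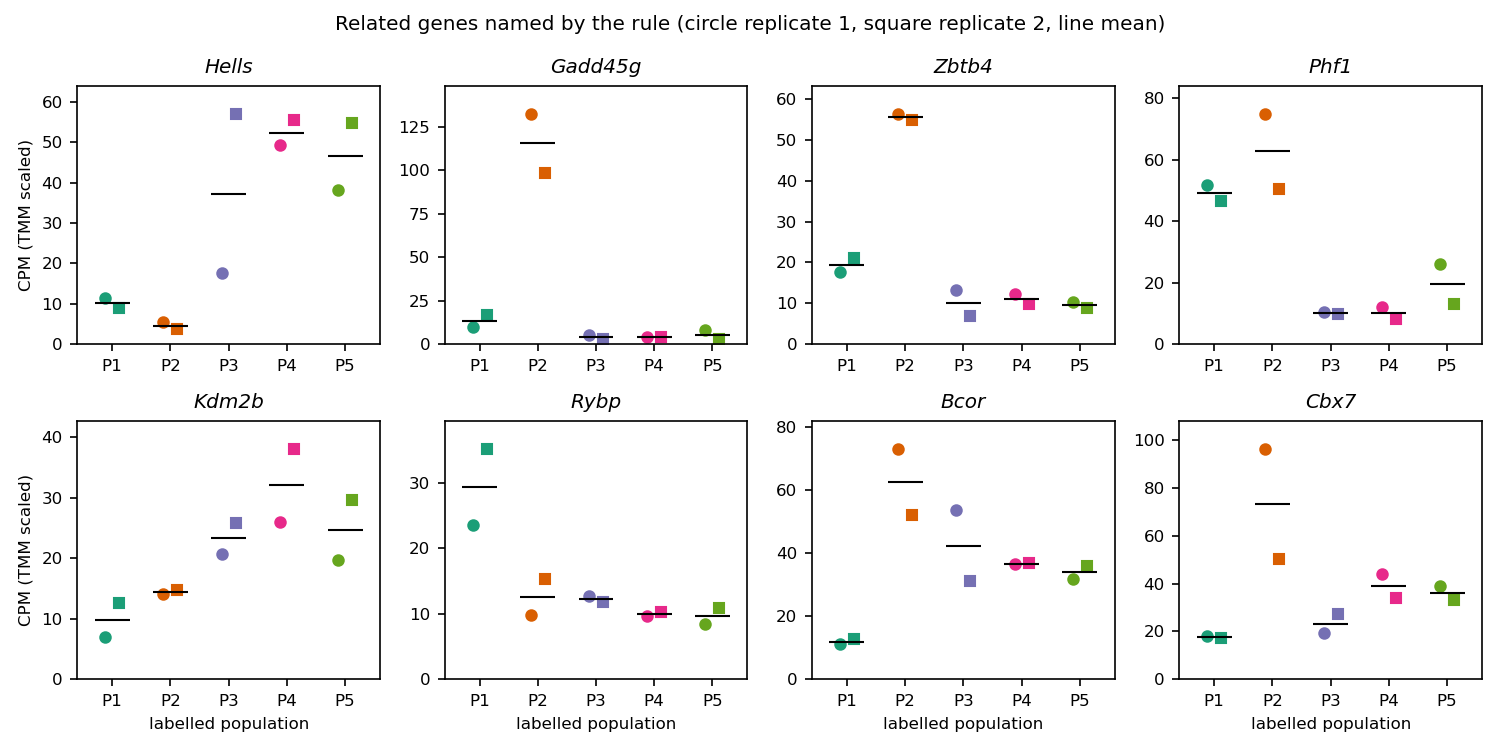
Level in CPM (linear axes from 0) of the 8 partner genes named by rule, in each library by labelled population, with circles for replicate 1, squares for replicate 2 and a line at the mean. Hells is low in P1 and P2 as Dnmt1 is, Gadd45g and Zbtb4 are highest in P2, Phf1 is high in P1 and P2, and Bcor and Cbx7 are lowest in P1.

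Hells, a chromatin remodeller needed for DNA methylation, was also low in P1 and P2. P1 held 11.5 and 8.87 CPM, the libraries labelled P2 5.49 and 3.79, the P3 libraries 17.5 and 57.1, P4 49.3 and 55.5, and P5 38.3 and 54.8. The 4 libraries of P1 and P2 lay below the other 6. Its log2 fold change was -3.51 in P2 versus P4 (SE 0.53, adjusted p = 0.00184, edgeR) and -2.36 in P1 versus P4 (SE 0.47, adjusted p = 0.00459, edgeR).

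Gadd45g, a stress gene tied to DNA demethylation, stood apart in the libraries labelled P2, at 133 and 98.4 CPM against 2.86 to 17.1 in the other 8. Its log2 fold change was 4.82 in P2 versus P4 (SE 0.52, adjusted p = 0.000557, edgeR) and 3.08 in P2 versus P1 (SE 0.47, adjusted p = 0.00102, edgeR). Zbtb4, which binds methylated CpG, was at 56.4 and 54.9 CPM in the libraries labelled P2 and 6.88 to 21.1 in the other 8, with a log2 fold change of 2.34 in P2 versus P4 (SE 0.32, adjusted p = 0.0012, edgeR). Both genes were highest in both libraries labelled P2, where the Paneth and goblet genes also were, and the part of those cells was not tested.

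Phf1, an accessory subunit that brings PRC2 to chromatin, was the one gene of its list called in P2 versus P4 and in P1 versus P4. P4 held 12.2 and 8.14 CPM, P5 26.1 and 13.2, P1 51.7 and 46.5, the libraries labelled P2 75.0 and 50.6, and those of P3 10.6 and 9.77. P1 and P2 lay above all other libraries, as they did above P4 and P5 for Ezh1. Its log2 fold change was 2.63 in P2 versus P4 (SE 0.37, adjusted p = 0.00138, edgeR) and 2.28 in P1 versus P4 (SE 0.37, adjusted p = 0.00197, edgeR).

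PRC1, the complex that places ubiquitin on histone H2A, had 4 of 23 genes called in P1 versus P4, 1 higher and 3 lower, and 4 in P2 versus P1, all higher, smaller shares than the 23.4% and 29.1% of all genes. Kdm2b, which binds unmethylated CpG and recruits a form of PRC1, had a log2 fold change of -1.71 in P1 versus P4 (SE 0.36, adjusted p = 0.00556, edgeR), at 6.95 and 12.5 CPM in P1, 25.9 and 38.1 in P4 and 14.0 and 14.7 in the libraries labelled P2. Bcor, of the same form, was at 11.01 and 12.7 CPM in P1 and 31.1 to 73.2 in the other 8, with log2 fold changes of -1.62 in P1 versus P4 (SE 0.29, adjusted p = 0.00293, edgeR) and 2.39 in P2 versus P1 (SE 0.30, adjusted p = 0.000481, edgeR). Rybp, a PRC1 subunit, was highest in P1, at 23.5 and 35.3 CPM against 8.48 to 15.4 in the other 8 (log2 1.56 in P1 versus P4, SE 0.32, adjusted p = 0.00534, edgeR). Cbx7, which reads the PRC2 mark, was at 18.1 and 17.1 CPM in P1, 19.1 and 27.3 in the P3 libraries and 96.6 and 50.2 in those labelled P2 (log2 2.06 in P2 versus P1, SE 0.33, adjusted p = 0.00131, edgeR). The P1 libraries held the lowest levels of Kdm2b, Bcor and Cbx7 and the highest of Rybp, and they also held the lymphocyte and myeloid genes at 722 to 959 CPM, whose part was not tested.

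Across the 10 libraries, the gene whose log2 CPM was most like that of Dnmt1 was Smc3 (Pearson r = 0.991), followed by Trp53 and Hmgn1. For Uhrf1 it was Atad2 (r = 0.989), followed by Mcm5 and Dck, and Mcm5 is in the S phase list. For Ezh2 it was Acsm3 (r = 0.976), followed by Rpa2, also in the S phase list, and Vrk1. Eed was most like Cbx1 (r = 0.968), Suz12 Depdc1b (r = 0.922), Ezh1 Mllt4 (r = 0.966), Tet2 Phf12 (r = 0.974), Tet3 Gcnt2 (r = 0.940), Dnmt3b Umps (r = 0.968) and Dnmt3a Zfp873 (r = 0.892). These are descriptions over 10 libraries that share 5 sorts, each gene being the best of 13706 tested, and carry no test.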

How the data were processed

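The authors sorted 10000 EpCAM+ crypt cells per population, made unstranded poly-A libraries, mapped reads to mm9 with TopHat 2.1.0 and counted them on exons with HTSeq 0.11.2, after FastQC 0.11.5. The deposited values are raw counts per gene, and reads with several alignments were not counted, so counts of close paralogs are uncertain. The row without a gene name (0.000147% to 0.000390% of reads) was left out.

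Samples were grouped by title, and the names of the deposited files carry other population numbers than the titles. Libraries of the same replicate number shared their sex by Uty, but no source ties a number to 1 animal. For that reason the model has no replicate block. The deviations of same-numbered libraries from the population means still correlated at over 0.1 in 9 of 10 pairs of populations (lowest -0.06). The model does not take up this sharing, and blocked values are given where a call changed. Of the 35006 gene names, 33643 were found in GENCODE vM1 (NCBIM37, the mm9 assembly), which gave positions and exon lengths. The 206 rRNA gene names were removed, filterByExpr left 13706 genes, and TMM-scaled counts were fitted as 5 population means over 10 libraries (5 residual degrees of freedom) with the quasi-likelihood test of edgeR 4.0.16 (R 4.3.3). P-values were adjusted by Benjamini-Hochberg over all genes tested, with calls at adjusted p under 0.01. For 1 gene alone, an exact test of 2 libraries against 2 cannot reach 0.05. CPM are TMM scaled, log2 CPM add a prior count of 2, and the detection limit of 3 counts (0.298 to 1.59 CPM) covers counting error only. Replicate libraries differed beyond counting noise (chi-square per degree of freedom 18.3 to 57.2).

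The members and lists were chosen with earlier results of these data known. Partner genes were named by rule, as the up to 3 called genes with the largest change in each direction in P2 versus P4, P1 versus P4 and P2 versus P1, and the 3 genes of highest correlation were taken for each member. On simulated counts of P2 versus P4 with 13120 genes, 72 of 192 tested genes changed 4-fold were called, all in the right direction, and 0 unchanged genes. Alternatives covered DESeq2 1.42.0 as test or scaling, the filter, the threshold, mitochondrial and rRNA genes, a replicate block, the libraries in the model and each library left out. Figures used Python 3.11.15, pandas 2.3.3 and matplotlib 3.10.9.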

Additional observations from a re-analysis of the deposited data

How the results depend on the processing

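Of 1638 recomputed differences of single genes, 1487 kept their direction and their side of the threshold, 44 called ones fell short of it, 41 passed it, and 66 that were never called changed sign, in 33 pairs of gene and comparison. No called difference changed direction. In 6 of the 33 pairs the reported difference exceeded its standard error, and all 6 came from leaving out 1 library labelled P3. The number of the 10 genes called moved beyond 1.5 times as follows. In P2 versus P1 it was 1 and became 2 without a filter, 3 at an adjusted p under 0.05, 0 without mitochondrial genes and 3 in the fit without the libraries labelled P3, which was added after seeing the data. In P3 versus P1 it was 0 and became 2 without a filter, with DESeq2, at an adjusted p under 0.05 and with the replicate block. In P2 versus P3 it was 2 and became 1 with DESeq2 size factors, without mitochondrial genes and with only the libraries compared. The interaction went from 0 to 2 without a filter. The cause was not tested. With 1 library left out, the number ranged from 1 to 4 for any difference, 0 to 3 in P2 versus P1, 1 to 3 in P2 versus P4, 0 to 3 in P1 versus P4, 0 to 2 in P3 versus P1, 1 to 4 in P2 versus P3 and 1 to 4 in P2 versus the average of the other 4, and stayed at 0 in P5 versus P4, P3 versus P5 and the interaction. The population left with 1 library was assumed to vary like the others. With 1 library of P1, P2, P4 or P5 left out, fewer of all genes passed in every comparison that had calls. With 1 labelled P3 left out, more passed in those comparisons, except in P3 versus P1, P2 versus P3 and the interaction, where fewer did. The numbers of the 10 genes are therefore to be read beside these shifts over all genes. Same-numbered libraries shared their sex, and their deviations correlated at -0.06 to 0.55. The block also brought the number in P2 versus P4 from 2 to 3, with Ezh2, and changed no other number. Over all genes, DESeq2 called 3121 in P2 versus P4, 3497 in P3 versus P1 and 2002 in the interaction, where edgeR called 1962, 2132 and 111, and without a filter edgeR called 3500, 4005 and 2298, with 5026 against 3214 in P1 versus P4, 4439 against 2881 in P2 versus P3, 7931 against 4971 for any difference, 194 against 0 in P5 versus P4 and 302 against 0 in P3 versus P5. With only the libraries compared, 0 genes were called in P3 versus P1 and 1093 in P2 versus P3. The interaction also gave 362 with DESeq2 size factors, 375 without mitochondrial genes and 593 with the block, and an adjusted p under 0.05 gave 3987 in P2 versus P4, 5777 in P1 versus P4, 6462 in P2 versus P1, 4652 in P3 versus P1, 5114 in P2 versus P3 and 2370 in the interaction. The median of all genes moved by over 0.1 on the log2 scale without mitochondrial genes, to 0.16 in P2 versus P1 and -0.26 in P1 versus P4, with DESeq2 in P2 versus the average of the other 4, to 0.18, and without a filter there, to -0.11. Low counts limit Dnmt3b, and the libraries labelled P3 hold the fewest counts on genes of the nucleus.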
